A study of Homo sapiens with 6 samples.

Results

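The 41 positions of human 18S rRNA described here are those listed as 2′-O-methylated in standard site lists. They were looked up by number in the deposited 18S tables, which hold 1869 positions, and the deposited reference has the listed base at 41 of 41. There are 13 methylated adenosines (Am), 7 cytidines (Cm), 9 guanosines (Gm) and 12 uridines (Um). Together with the bases up to 2 nt on either side they cover 194 rows, because the windows of 4 pairs overlap (172 and 174, 509 and 512, 797 and 799, 1326 and 1328). The whole series holds 6939 positions of 18S and 28S, and 1673 other 18S rows serve as the comparison.

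2′-O-methylation adds a methyl group to the 2′ oxygen of the ribose and leaves the base itself free to pair. In the nucleolus the methyltransferase fibrillarin places most of these groups in rRNA, guided to each site by a box C/D small nucleolar RNA. The group blocks the attack of the 2′ oxygen on the next phosphate, so the bond 3′ of a methylated base resists alkali, and some reverse transcriptases slow at such bases when nucleotides are scarce. Both properties are used to map these sites. The methylation level of a site in these cells was not measured by the deposited data.

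The RNA came from HEK293T/17, a human embryonic kidney line, and its short RNAs had been removed. It was broken into fragments by a method that is not given in the sources used here. One portion received CMC, a carbodiimide that forms a bulky adduct on U, G and pseudouridine (Ψ) bases, and the other a mock treatment. Both were then copied by HIV reverse transcriptase (HIV RT) with magnesium, or by SuperScript III, a reverse transcriptase engineered from that of a murine leukaemia virus, with manganese or with magnesium. The 6 groups were therefore CMC and mock with HIV RT, CMC and mock with SuperScript III and manganese, and CMC and mock with SuperScript III and magnesium. Each group is 1 library, so no difference between treatments or between copying conditions has a replicate check.

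For each position the tables give the crossing reads, their bases and the stops booked there. The mismatch share gives, in percent, how many crossing reads carry a base other than the reference. The stop share divides the stops by the sum of stops and crossing reads, also in percent. Where a stop is booked at one position, the crossing counts begin 2 nt further 3′. If a read's first base does not enter the crossing counts, the read that gives the stop begins at the next base 3′. The tables do not hold the read ends themselves. Crossing reads at the 41 positions lay between 15116 and 272088 in the HIV RT CMC library and between 99230 and 484792 in the HIV RT mock library. They lay between 17914 and 384891 in the manganese CMC library, 115108 and 373474 in the manganese mock library, 18792 and 367688 in the magnesium CMC library, and 70979 and 278639 in the magnesium mock library. The half-width of the 95% Wilson interval at any of the 41 positions was at most 0.404 points for a stop share and 0.139 points for a mismatch share. These intervals cover counting error only, since amplified reads that carry no molecular identifier can repeat 1 molecule.

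The windows below are 15 nt long and come from the deposited 18S reference, counted from 1, with T for U. The capitals mark the methylated base and the base 5′ of it. The first set holds methylated adenosines with high and low mismatch shares, the second positions whose 5′ neighbour had few or many stops, and the third positions with many or few stops at the methylated base.
Am1031 (1024 to 1038): atcaagAAcgaaagt
Am159 (152 to 166): tgtggtAAttctaga
Am1383 (1376 to 1390): ataacgAAcgagact
Am166 (159 to 173): attctaGAgctaata
Gm1490 (1483 to 1497): aataacAGgtctgtg
Cm1703 (1696 to 1710): cacaccGCccgtcgc
Gm1328 (1321 to 1335): ggtggtGGtgcatgg
Um799 (792 to 806): cgaagcGTttacttt
Gm867 (860 to 874): gaataaTGgaatagg
Um121 (114 to 128): gttcctTTggtcgct
Um354 (347 to 361): gaacgtCTgccctat

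At the methylated base itself, mock stop shares were spread around the level of other bases of the same kind. They ran from 0.354% to 5.67% with HIV RT (median 2.07%), from 0.111% to 7.55% with manganese (median 1.99%) and from 0.152% to 5.45% with magnesium (median 1.35%). Of the 41 positions, 17, 20 and 15 lay above the median of other 18S rows with the same base, a level that other rows exceed as often as not by construction. The median difference from that level was −0.31, −0.03 and −0.62 points with HIV RT, manganese and magnesium. Stops at the methylated base were thus near the level of other rows, with the lowest count above it with magnesium.

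The stop share was also set against its surroundings. The local stop ratio is the stop share of a position over the mean of the 4 positions within 2 nt, and it is called low when under 0.5. At the methylated base it was low at 9 of 41 positions with HIV RT, where 20.0% of other 18S rows were low. It was low at 10 of 41 with manganese, where 33.0% of other rows were low, and at 18 of 41 with magnesium, where 34.4% were low. The shares for HIV RT and manganese were close to or below those of other rows, and that for magnesium was 43.9%.

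Single positions differed widely around this level. Gm867 had the highest stop share relative to other G rows, with 5.67% in the HIV RT mock library, 7.55% in the manganese mock library and 5.45% in the magnesium mock library. It was above the same-base median in all 3 libraries. Position 512, an Am, had 0.881%, 7.20% and 3.98% in the same order of libraries. It was low with HIV RT and high under both SuperScript III conditions.

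Um121 lay at the other end, with 1.62%, 0.471% and 0.152% in the HIV RT, manganese and magnesium mock libraries and local ratios of 0.477, 0.212 and 0.141. It was low against its neighbours in every mock library and was the only member for which this held, as against 110 of 1656 other rows (6.64%). Um354 had 1.46%, 0.282% and 0.418%, and Um1288 had 1.10%, 0.939% and 0.663%, and each had a ratio of 0.273 or less under both SuperScript III conditions. Position 799, another Um, had 3.36% with HIV RT against local ratios of 0.0389 and 0.130 with manganese and magnesium, where its own stop shares were 0.111% and 0.442%.

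The other positions with high mean stop shares for their base were Am99, with 2.62%, 5.50% and 4.11% in the HIV RT, manganese and magnesium mock libraries, Um1442, with 3.09%, 5.80% and 3.14%, and Um172, with 5.67%, 1.605% and 4.46%. With manganese Um172 was below the median of other U rows, 2.27%. Those with low shares were Am468, with 0.473%, 0.798% and 0.458%, Gm683, with 2.06%, 0.354% and 0.160%, and Gm644, with 0.354%, 1.32% and 0.916%. Am468, Gm644, Gm683, Um121 and Um354 were among the 13 of 41 positions that lay below the same-base median in every mock library. Gm683 lay far below it under the SuperScript III conditions. The share of other rows below the same-base median in every mock library is not given. The count of 13 thus has no background beside it. Low mean local ratios were also found at Am166 (0.336, 0.546 and 0.310) and Cm1391 (0.336, 0.721 and 0.317), where HIV RT and magnesium gave the low values.

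Across the 41 positions the local ratio at the methylated base had a Spearman's rho of 0.79 between the manganese and magnesium mock libraries. It was −0.04 between HIV RT and manganese and 0.02 between HIV RT and magnesium. These values describe 41 points that share one enzyme, or one RNA sample and sequence, and carry no test.

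Mismatches at the methylated base depended on the base and on the copying condition. With HIV RT, 8 of 41 positions lay above the same-base median of other 18S rows, and with manganese 11 of 41 did. With magnesium the count was 23 of 41. The methylated bases were thus copied with fewer mismatches than other bases of their kind in most cases with HIV RT and manganese, while the magnesium library was divided by base.

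None of the 7 methylated cytidines lay above the same-base mismatch median in the 3 mock libraries. Their median mismatch share was 0.240% against 0.752% at other C rows with HIV RT, 0.0828% against 0.346% with manganese, and 0.0590% against 0.0931% with magnesium. The 9 methylated guanosines had 2, 1 and 3 of 9 above the same-base median with HIV RT, manganese and magnesium. The 12 methylated uridines had 2, 3 and 7 of 12 above it.

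The 13 methylated adenosines went the other way in the magnesium library. Their mock mismatch shares there ran from 0.0887% at Am166 to 0.927% at Am159, with a median of 0.383% against 0.0802% at 367 other A rows. All 13 lay above the same-base median, and 8 of 13 lay above the 90th percentile of other A rows, 0.230%. With HIV RT their median was 0.641% against 0.783%, and with manganese it was 0.364% against 0.364%, with 4 and 7 of 13 above. The rise over other adenosines was thus measured in 1 of the 3 conditions, that with the lowest mismatch level elsewhere.

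**Figure D1:**
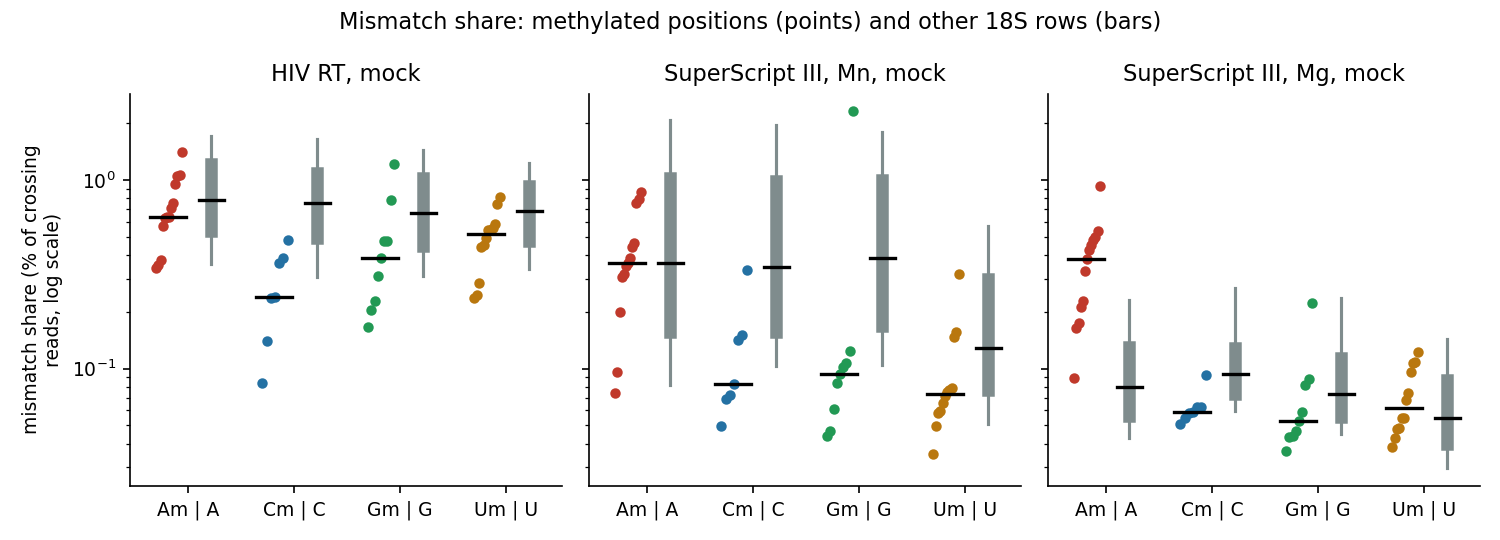
Mismatch share in percent of crossing reads (log scale) at the methylated positions of each base (points, left, with their median as a black line) and at other 18S rows of the same base (grey, right: thin bar 10th to 90th percentile, thick bar quartiles, black line median), one panel per mock library. With magnesium the 13 Am points have a median of 0.383% against 0.0802% for other A rows, while the 7 Cm points lie low in all 3 panels.

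These adenosines were mostly read as U. In the magnesium mock library 86.0% of the mismatched reads at the 13 positions carried U, with a median of 83.9% per position, against 40.6% pooled and a median of 26.9% at other A rows. Am1031 had 1391 mismatched reads of 259724 crossing, or 0.536% (95% Wilson interval 0.508% to 0.564%), of which 95.3% were U. Am1383 had 1224 of 268806 and 92.2% U, and Am159 had 1174 of 126664 and 92.1% U. Am166 was lowest, with 106 of 119522 mismatched and 43.4% U.

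Pooled over the 13 positions, U was also the most frequent misreading in the other libraries, but not always more so than at other A rows. Single positions differed with CMC. Am27 was read mostly as G with manganese (61.5%), and C was most frequent at Am484 with manganese (35.1%) and magnesium (49.1%). In the magnesium CMC library 12 of 13 methylated adenosines lay above the same-base median, with a median mismatch share of 0.331% against 0.100% at other A rows, and 78.6% of the mismatched reads carried U against 38.9%. With HIV RT the share of U among mismatches in the mock library was 72.3% at the 13 positions against 52.8% at other A rows, and with manganese it was 86.7% against 78.5%. In the CMC libraries it was 70.6% against 48.0% with HIV RT, while with manganese it was 69.6% against 72.5% of the pooled mismatched reads, below the other A rows. The median over single positions in that manganese CMC library was 83.2% against 64.3%.

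The methylated adenosines of 28S rRNA were not used to notice this. They come from a list of 64 2′-O-methylated positions of 28S written from general knowledge after the 18S values had been seen. In the magnesium mock library 17 of 20 lay above the median of other A rows of 28S, with a median mismatch share of 0.220% against 0.0919%, and 4 of 20 lay above the 90th percentile of those rows, 0.422%. The median share of U per position was 73.1% against 28.6%. The other 44 methylated positions of 28S had 10 of 44 above the same-base median.

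Gm1447 had the highest mismatch share relative to its base, with 1.22%, 2.32% and 0.222% in the HIV RT, manganese and magnesium mock libraries and 1.31%, 2.28% and 0.333% in the CMC libraries. It was above the same-base median in all 6 libraries. It passed the 90th percentile of other G rows only in the manganese mock library, where that was 1.79%. A Ψ lies 2 nt 5′ of it, at position 1445. Am576 had 1.06%, 0.866% and 0.497%, Am99 had 1.40%, 0.387% and 0.213%, and Am668 had 0.627%, 0.792% and 0.383% in the 3 mock libraries.

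Fewer stops were booked at the base 5′ of the methylated one than around it. By the placement of crossing reads given above, the read behind such a stop begins at the methylated base if its first base is not counted, and 1 nt further 3′ if it is, and the tables do not settle which. This offset was singled out after the values at all 5 offsets, both measures and 3 mock libraries had been seen, so its counts are descriptions. The stop share there was below the same-base median at 33, 31 and 28 of 41 positions with HIV RT, manganese and magnesium. Its median was 1.18%, 0.789% and 0.739%, or −1.06, −1.26 and −0.80 points from the same-base level. With HIV RT such low values were not particular to this offset. At 3 nt 5′ the HIV RT stop share was below the same-base median at 32 of 41 positions, with a median of 1.47%.

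Low values 1 nt 5′ were also found for the local stop ratio. One base 5′ of the member its median was 0.582 against 0.867 at other 18S rows with HIV RT, 0.407 against 0.808 with manganese and 0.465 against 0.822 with magnesium. It was low at 20, 24 and 22 of 41 positions, or 48.8%, 58.5% and 53.7%, which is above the 20.0%, 33.0% and 34.4% of other rows. At 10 of 41 positions it was low in all 3 mock libraries, against 110 of 1656 other rows. At 2 nt 5′ the ratio was low at 5, 19 and 14 of 41 positions with HIV RT, manganese and magnesium, or 12.2%, 46.3% and 34.1%. With manganese low ratios were thus not confined to 1 nt 5′, and the stop share 2 nt 5′ was below the same-base median at 28 of 41.

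**Figure D2:**
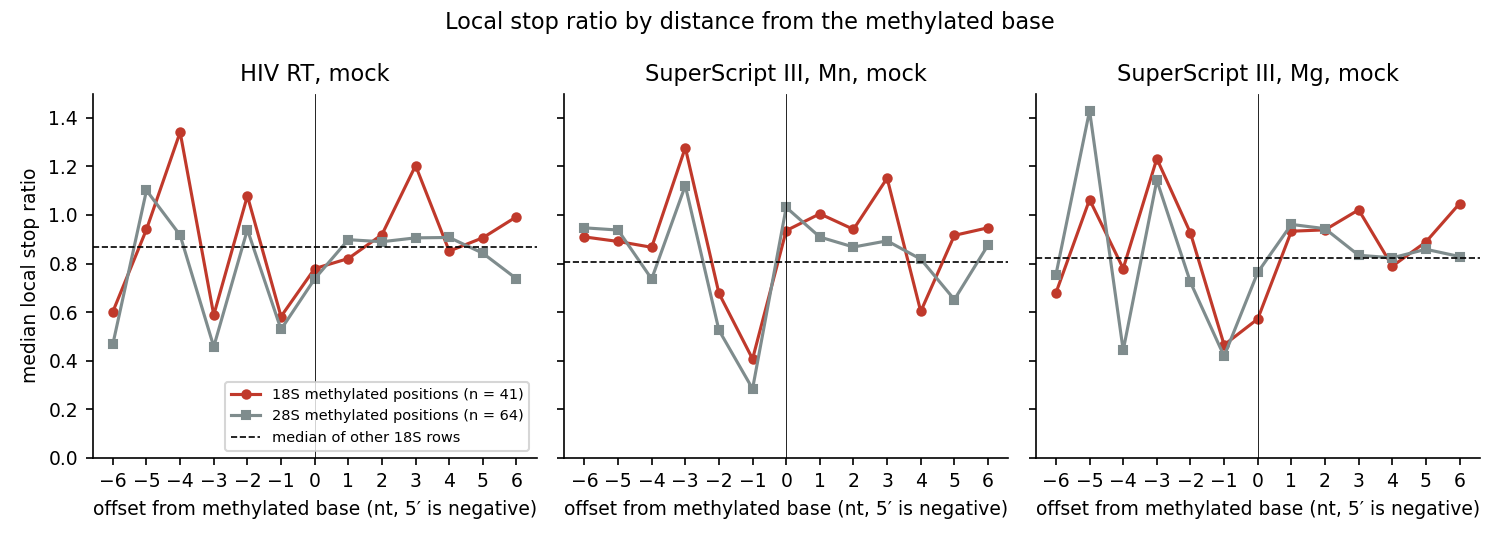
Median local stop ratio by offset from the methylated base (nt, negative is 5′) at 41 positions of 18S (red circles) and 64 of 28S (grey squares) in the 3 mock libraries, with the median of other 18S rows dashed. The ratio is lowest 1 nt 5′ of the methylated base under both SuperScript III conditions (0.407 and 0.465 in 18S). With HIV RT its lowest medians in 18S are 0.582, 0.588 and 0.602, at 1, 3 and 6 nt 5′. In 28S they are 0.529, 0.458 and 0.468 at the same offsets.

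The pattern depended on the methylated base. The ratio at the 5′ neighbour was low at 8, 7 and 7 of 9 Gm, at 3, 6 and 7 of 7 Cm and at 5, 6 and 5 of 12 Um with HIV RT, manganese and magnesium. At Am it was low at only 4, 5 and 3 of 13, and its median there was 1.29, 1.003 and 1.52, so the dip was not seen at methylated adenosines by this measure. When rows were matched on their own base and on the base 3′ of them, the 5′ neighbours of Am differed from their matched level by a median of −0.72, −0.99 and −0.76 points, with 5, 6 and 6 of 13 above it. The neighbours of Cm, Gm and Um together had 3, 5 and 5 of 28 above the matched level.

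**Figure D3:**
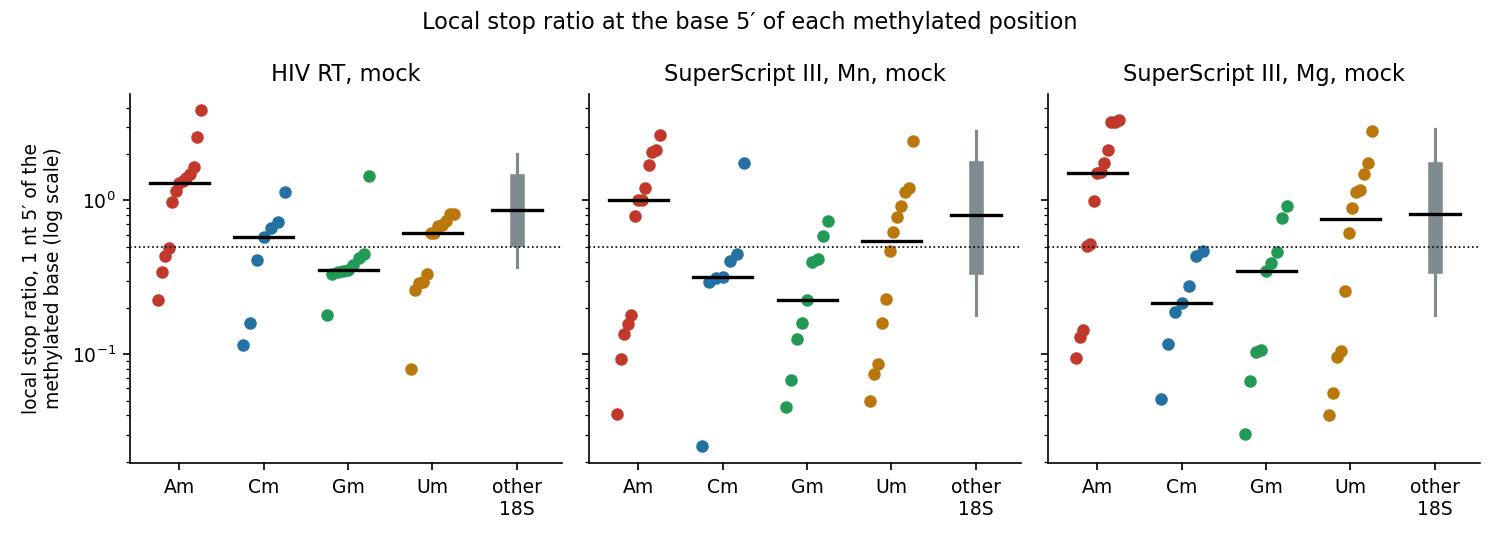
Local stop ratio (log scale) 1 nt 5′ of each methylated position, grouped by methylated base (points, black line median) and for other 18S rows (grey: thin bar 10th to 90th percentile, thick bar quartiles), one panel per mock library, with 0.5 dotted. Gm points have medians of 0.354, 0.225 and 0.349 and Am points 1.29, 1.003 and 1.52 with HIV RT, manganese and magnesium.

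The 3 positions with the lowest mean ratio 1 nt 5′ show the range of the dip. Next to Gm1490 the stop share was 0.854%, 0.152% and 0.0583% in the HIV RT, manganese and magnesium mock libraries, with ratios of 0.425, 0.0677 and 0.0301. Next to Cm1703 it was 0.922%, 0.0481% and 0.168%, with ratios of 0.411, 0.0252 and 0.117, while the methylated base itself had 2.44%, 4.82% and 2.94%. Both dips were deeper under the SuperScript III conditions than with HIV RT. Next to Gm1328 the ratios were 0.449, 0.0454 and 0.0672.

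Other positions had no such dip. Next to Am1031 the stop share was 7.41%, 4.29% and 7.91% and the ratio 2.57, 2.08 and 3.33, and next to Um799 the ratio was 0.821, 2.44 and 2.82. These rows were above their surroundings, with HIV RT at Um799 as the exception. The surroundings of the row next to Um799 include Um799 itself, whose stop share was low under the SuperScript III conditions. By the mean over the mock libraries the ratio next to Am1678 was 2.41, between those next to Am1031 (2.66) and Um799 (2.03). Between libraries the ratio 1 nt 5′ had a Spearman's rho of 0.80 for manganese and magnesium over the 41 positions, and 0.14 and 0.22 for HIV RT with manganese and with magnesium.

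The 64 positions of 28S gave like values. One base 5′ the ratio was low at 31, 42 and 37 of 64 with HIV RT, manganese and magnesium, where 21.0%, 34.2% and 35.1% of other 28S rows were low. Its median was 0.529, 0.284 and 0.419. At 2 nt 5′ in 28S the ratio was low at 9, 30 and 23 of 64 with HIV RT, manganese and magnesium. At 4 nt 5′ it was low at 15, 20 and 34 of 64, and its median with magnesium was 0.443. In the CMC libraries of 18S the count 1 nt 5′ was 15, 20 and 16 of 41, where 23.3%, 36.9% and 39.6% of other rows were low. The share with CMC and magnesium, 39.0%, was thus at the level of other rows.

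Mismatches at the 5′ neighbour were also fewer with HIV RT. They lay below the same-base median at 37 of 41 positions of 18S and 53 of 64 of 28S, with a median difference of −0.34 and −0.31 points. With manganese and magnesium 15 and 16 of 41 lay below it. The offsets 3 and 6 nt 5′ also stood out with HIV RT after the profile had been extended beyond the windows. At 3 nt 5′ the ratio was low at 19 of 41 positions of 18S and 35 of 64 of 28S with HIV RT, and at 9 and 5 of 41 of 18S with manganese and magnesium. The HIV RT stop share in 28S was below the same-base median at 48 of 64 positions 3 nt 5′ and at 49 of 64 one base 5′. At 6 nt 5′ it was low at 19 of 41 positions of 18S and 33 of 64 of 28S with HIV RT, and at 10 and 12 of 41 of 18S with manganese and magnesium.

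Among the other neighbours, rows with many stops were found on both sides of the methylated base. Those named here were picked for their high mock stop shares. Position 485, 1 nt 3′ of Am484, had 3.31%, 16.3% and 12.3% in the HIV RT, manganese and magnesium mock libraries. Position 1705, 2 nt 3′ of Cm1703, had 14.4%, 2.39% and 1.30%. The first was thus high with SuperScript III and the second with HIV RT. Position 603, 2 nt 3′ of Gm601, had 9.63%, 5.50% and 5.54%, and position 515, 2 nt 5′ of Cm517, had 0.777%, 6.87% and 6.05%. By count, the bases 1 and 2 nt 3′ had low ratios at 10 and 7 of 41 positions with HIV RT, 13 and 13 with manganese and 13 and 12 with magnesium, close to other rows.

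The median CMC minus mock difference in stop share over the 41 methylated bases was 0.40, −0.04 and −0.11 points with HIV RT, manganese and magnesium. Other 18S rows had medians of 0.17, 0.01 and 0 points. The 12 Um alone had 1.93, 0.62 and 2.01 points, and 10 of 12 were above 0 in each condition. A position was called up where the CMC library exceeded the mock library by at least 5 points with an adjusted p under 0.05 in a two-sided Fisher's exact test with Benjamini-Hochberg adjustment over all tested positions of both rRNAs. Such a call compares 2 libraries, not 2 treatments. With HIV RT 3 of 41 were called up, where 10.1% of all positions were, with manganese 1 of 41, where 8.38% were, and with magnesium 0 of 41, where 9.22% were. None of the 41 was called down, where 3.66%, 1.98% and 1.84% of all positions were.

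The 4 calls were at an Am and 3 Um. Am159 had 10.97% in the HIV RT CMC library and 2.66% in the HIV RT mock library, a rise of 8.32 points, and 5.40% against 1.38% with manganese and 0.9999% against 0.470% with magnesium. Um1442 had 8.26% against 3.09% with HIV RT, a rise of 5.17 points, and rose by 0.49 and 0.76 points with manganese and magnesium. It lies 3 nt 5′ of the Ψ at position 1445, whose stop share was 60.9% against 4.71% with HIV RT. A link between these differences was not tested. Um1668 had 10.4% in the manganese CMC library and 4.31% in the manganese mock library, a rise of 6.12 points. It was higher with CMC in all 3 conditions, by 2.11 points with HIV RT and 4.40 points with magnesium.

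Um799 had 10.8% in the HIV RT CMC library against 3.36% in the HIV RT mock library. With manganese it had 0.679% against 0.111%, and with magnesium 0.306% against 0.442%, so the direction was not the same in all conditions. The largest differences below 0 were at Am1031 with manganese (−3.86 points), Am668 with magnesium (−3.30 points) and Gm867 with HIV RT (−3.15 points). All 3 had a lower stop share with CMC in every condition.

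Several Um had smaller differences that did not reach the bar. Um627 had 8.14% with CMC and 3.76% in the mock library with HIV RT, and Um116 had 6.37% with CMC and 2.62% in the mock library with manganese. With magnesium the differences were 3.25 points at Um354, 2.98 at Um428 and 2.61 at Um627. Am484 differed by 3.07, 2.47 and 1.69 points with HIV RT, manganese and magnesium. Am99 differed by −2.96 points with magnesium, and Cm797 by −1.87 points with manganese.

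Mismatch shares were called up where they rose by at least 1 point under the same test. With HIV RT this held for 5 of 41, where 11.2% of all positions were called, with manganese for 1 of 41, where 13.3% were, and with magnesium for 0 of 41, where 1.69% were. The 5 were Um354 (1.9996% against 0.817%), Um1804 (1.71% against 0.540%), Um1442 (1.74% against 0.583%), Um1668 (1.86% against 0.751%) and Gm436 (1.86% against 0.781%), CMC before mock. The manganese call was again Um1442, with 1.27% against 0.0772%.

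Among other 18S rows, U made up 138 of 197 stop calls with HIV RT, 103 of 166 with manganese and 158 of 193 with magnesium. The 12 methylated uridines were therefore set against 310 other U rows of 18S that carry no listed modification. Their stop share rose with CMC by a median of 1.93 points with HIV RT, 0.62 points with manganese and 2.01 points with magnesium. The other U rows rose by a median of 2.83, 1.28 and 3.43 points. Calls were made at 2, 1 and 0 of 12 Um, or 16.7%, 8.33% and 0%, against 33.2%, 24.8% and 39.0% of the other U rows. At 9, 9 and 11 of 12 the rise was below the median of the other U rows, so most of the methylated uridines had a smaller difference in each condition, although the 2 groups overlapped. For mismatches 7, 10 and 9 of 12 were below that median. Whether these uridines differ from the others in structure or neighbours was not tested.

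**Figure D4:**
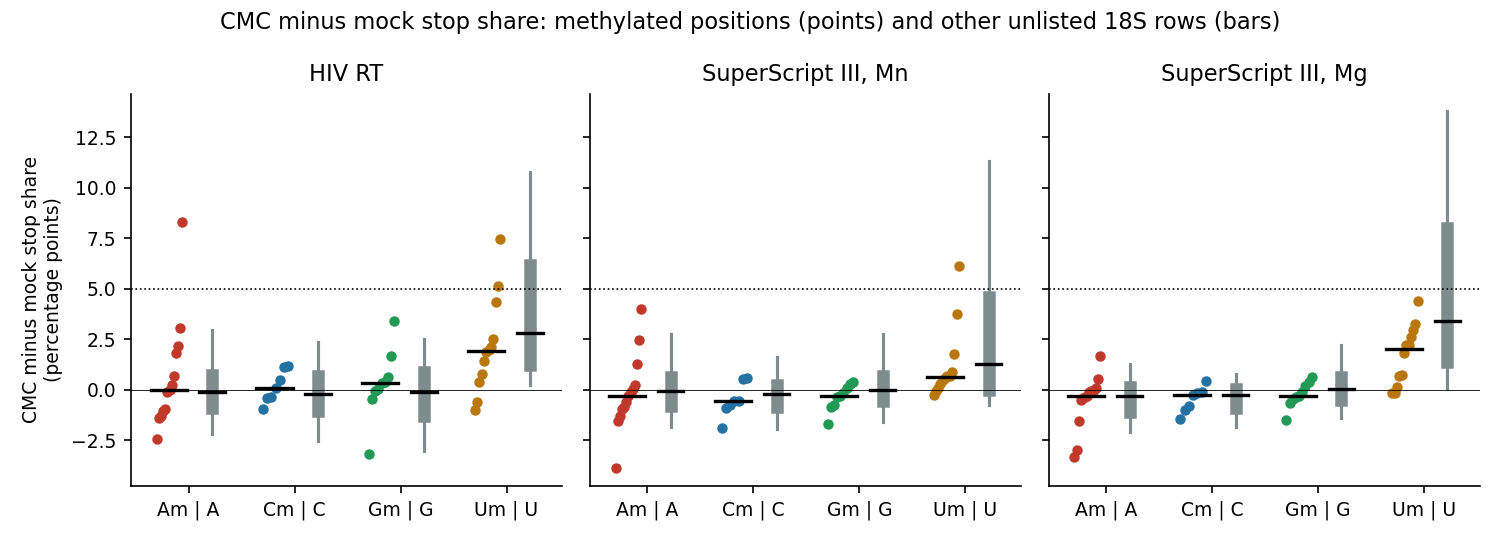
CMC minus mock stop share in percentage points at the methylated positions of each base (points, left, black line median) and at other 18S rows of the same base with no listed modification (grey, right: thin bar 10th to 90th percentile, thick bar quartiles, black line median), one panel per copying condition, with 0 and 5 points marked. The 12 Um have medians of 1.93, 0.62 and 2.01 points against 2.83, 1.28 and 3.43 points for other U rows.

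The windows of the 41 positions also hold 5 listed Ψ, at positions 119, 681, 801, 866 and 1445. Their stop shares with HIV RT were 43.9%, 8.99%, 34.8%, 8.25% and 60.9% in the CMC library against 6.80%, 2.07%, 2.94%, 1.45% and 4.71% in the mock library. The stop share of each was higher with CMC in all 3 conditions. At position 1445 it was 60.9% against 4.71%, 56.8% against 3.71% and 65.4% against 5.11% with HIV RT, manganese and magnesium. Gm1447, 2 nt 3′ of it, differed by 0.03, −0.17 and 0.37 points, so no such difference was seen at the methylated neighbour.

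Between Um116 and Um121 the CMC stops fell on different bases in the 3 conditions. At the Ψ at position 119 the stop share was 43.9% against 6.80% with HIV RT, 9.95% against 2.19% with manganese and 7.88% against 0.297% with magnesium, CMC before mock. At position 118, a C directly 5′ of it, the values were 4.99% against 1.68%, 23.1% against 2.24% and 37.8% against 2.23%. The higher of the 2 CMC values was thus at the Ψ with HIV RT and 1 nt 5′ of it under both SuperScript III conditions. Position 118 was noted after its values had been seen.

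Gm867 lies directly 3′ of the Ψ at position 866. With HIV RT that Ψ had a mismatch share of 7.56% in the CMC library against 0.407% in the mock library, with manganese 8.995% against 0.145%, and with magnesium 0.648% against 0.0604%. In the mock libraries its stop share was the low value 5′ of a methylated base, 1.45%, 0.483% and 0.430% against 5.67%, 7.55% and 5.45% at Gm867 itself. Its local ratio was 3.18, 0.676 and 2.30 in the CMC libraries, against 0.333, 0.125 and 0.107 in the mock libraries.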

How the data were processed

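Stops and mismatches were measured at each position of 18S and 28S rRNA in 6 libraries, 1 per group. The submitters' processing notes list Trimmomatic 0.32 and Bowtie 1.0 without settings. Per the file headers, the authors deposited counts of crossing reads by base, stop counts (another whole number) and a mismatch rate and stop frequency as fractions from 0 to 1. Both fractions were recomputed from the counts and expressed in percent, and the deposited values were equal to them. Positions follow the deposited rRNA reference, to which no genome build applies, and rDNA copies are not separated.

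The members and lists were chosen with earlier results of these data known. Rows needed at least 100 crossing reads. Other 18S rows lie more than 2 nt from every member. CMC and mock libraries were compared per position by Fisher's exact test over 6935, 6924 and 6912 positions of both rRNAs with Python 3.11.15, pandas 2.3.3 and SciPy 1.17.1, after tests on simulated data. Named positions are the 5 members with the highest and lowest mock stop share, highest mismatch share and lowest local ratio, the largest CMC differences per condition, the neighbours with most stops and each listed Ψ in a window. Rules for the base 5′ of a member, for base-specific mismatches, for offsets beyond 2 nt and for 28S were added after seeing values, and 1 of 65 listed 28S positions was dropped because its base differed. Alternatives changed the read minimum, the comparison rows, the ratio and the size bars.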

Additional observations from a re-analysis of the deposited data

Results flagged for a closer look

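The CMC minus mock difference in stop share at Um799 was 7.46 points with HIV RT, 0.57 points with manganese and −0.14 points with magnesium. It was singled out because it was called up in one copying condition and lay below 0 in another. Position 799 lies 2 nt 5′ of the Ψ at position 801, whose stop share was higher with CMC by 31.8, 38.8 and 30.1 points, and its window overlaps that of Cm797. With 1 library per group, the difference between conditions was not tested.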

How the results depend on the processing

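No paired analysis was possible because each group is 1 library with no replicate of its own, and a comparison of CMC and mock libraries paired over the 3 conditions, which differ in enzyme or ion, was not run. Of 183 values under alternatives, 166 stayed within 1.5 times the main count. The planned ones that moved were these. With a ratio threshold of 0.25, low ratios at the methylated base fell to 0, 4 and 8 of 41 with HIV RT, manganese and magnesium. Of other 18S rows, 3.32%, 15.6% and 15.6% were under that threshold. At the main threshold of 0.5 the manganese count fell to 6 when the 5 members near a listed modification were left out. With a stop bar of 2 points, 9, 4 and 6 positions were called up, and with 10 points 0 with HIV RT and 0 with manganese. With a mismatch bar of 0.5 points 9 and 7 were called with HIV RT and manganese, and with 5 points 0 and 0. The shares of all positions called at these other stop and mismatch bars are not given, so these counts have no background beside them. With 28S rows as comparison, 5 positions lay above the same-base mismatch median with manganese. Among alternatives chosen after seeing the data, 5 ratios at the base 5′ of the member were under 0.25 with HIV RT, where 3.32% of other rows were. For the methylated adenosines, 8 lay above the mismatch median in the HIV RT CMC library and 3 with manganese against 28S rows. The 13 in the magnesium library became 12 against 28S rows or in the CMC library. Leaving out the molecule's ends removed Am27, and the remaining 12 all lay above the median. The cause was not tested, except that stricter bars leave fewer calls. The median number of crossing reads over the 41 positions was lower in each CMC library than in its mock library.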
